A study of Homo sapiens with 8 samples.

Results

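Serum amyloid A and inflammatory genes under the control of NF-kappaB were compared in cancer stem cells (CSCs) that carried shRNA against CDH2, shRNA against Cx43, or a scramble shRNA. The set holds 10 genes chosen by name: the serum amyloid genes SAA1 and SAA2, the cytokines IL6, CXCL8, CXCL1, CXCL2 and LIF, and the NF-kappaB genes NFKBIA, TNFAIP3 and RELA. All 10 were found among the 12939 named genes of the deposited values, and all 10 were kept, since no further filter on low values was applied. SAA1 and SAA2 were chosen because they fell in both knockdowns, so their values are given as a description without a test. The other 8 were chosen for their place in the pathway, with earlier results of these data known. The question was whether these 8 followed the fall of SAA1 and SAA2.

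The CSCs came from MDA-MB-231, a triple-negative breast cancer cell line, with a stable GFP reporter driven by the Oct4a regulatory region and kept under G418. A second vector carried RFP and an shRNA, and stable cells were selected with puromycin. CDH2 encodes N-cadherin and Cx43 is the gap junction protein connexin 43. All 3 groups carried both vectors, were sorted as GFPhi/RFPhi, and stood overnight in culture before total RNA was taken and ribosomal RNA depleted. The scramble and CDH2 shRNA groups had 3 libraries each and the Cx43 shRNA group had 2. The CDH2 knockdown cells are 1 clone, picked from several for its loss of the protein, and clone and knockdown cannot be told apart there. The labels do not say whether the numbered libraries of a group were separate cultures, so the p-values measure only the spread between these libraries.

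NF-kappaB is a family of dimeric transcription factors that IkappaB proteins hold in the cytoplasm until the IkappaB kinase (IKK) complex marks them for destruction. Its targets include cytokines and chemokines, and also the inhibitors NFKBIA and TNFAIP3, which close a negative feedback loop. SAA1 and SAA2 encode acute phase apolipoproteins made mainly by the liver under IL-6 and IL-1, and some tumor cells transcribe them too. IL-6 acts through its receptor and STAT3, and NF-kappaB and C/EBP factors bind the promoters of many acute phase genes. NF-kappaB activity is set largely by the location and modification of its proteins, which RNA levels do not measure.

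Where RefSeq promoters were at hand, the 250 bases before the start site were searched on both strands for the kappaB consensus, a 10-base motif, and for TTNNGNAA, a motif of C/EBP factors. A promoter was matched for 7 of the 10 members. The 3 windows below belong to the member that passed the test in a knockdown (TNFAIP3), the other feedback inhibitor (NFKBIA) and the cytokine that acts upstream of the acute phase genes (IL6). Each runs 5′ to 3′ on the strand of the gene, and the capitals mark kappaB matches.
TNFAIP3, chr6:137867009-137867258, GRCh38.p14, plus strand: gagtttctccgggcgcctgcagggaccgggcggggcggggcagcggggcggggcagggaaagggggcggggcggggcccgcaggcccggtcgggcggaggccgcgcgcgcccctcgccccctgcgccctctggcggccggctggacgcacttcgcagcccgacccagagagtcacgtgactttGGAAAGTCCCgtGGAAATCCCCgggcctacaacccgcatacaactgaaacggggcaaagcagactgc
NFKBIA, chr14:35404750-35404999, GRCh38.p14, minus strand: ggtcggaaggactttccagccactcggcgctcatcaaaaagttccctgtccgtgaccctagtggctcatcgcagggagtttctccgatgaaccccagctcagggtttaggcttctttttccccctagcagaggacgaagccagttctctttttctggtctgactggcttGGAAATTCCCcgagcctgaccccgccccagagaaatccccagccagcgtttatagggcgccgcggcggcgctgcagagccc
IL6, chr7:22726950-22727199, GRCh38.p14, plus strand: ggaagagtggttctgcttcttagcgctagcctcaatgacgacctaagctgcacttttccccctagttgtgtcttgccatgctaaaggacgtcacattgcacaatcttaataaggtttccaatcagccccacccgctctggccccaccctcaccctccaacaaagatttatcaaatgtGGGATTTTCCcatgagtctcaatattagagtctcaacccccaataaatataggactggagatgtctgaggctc
Counted back from the start site, with -1 for the base just before it, the TNFAIP3 window held 2 kappaB matches, at -67 and -55, and a TTNNGNAA match at -70 that overlapped the first of them. NFKBIA held a kappaB match at -81. IL6 held one at -73 and a TTNNGNAA match at -155. CXCL1 and CXCL2 each held a pair of overlapping kappaB matches, at -79 and -78 and at -78 and -77, and CXCL8 and RELA held no kappaB match in these windows. The search allowed no mismatch, and the CXCL8 window holds tggaatttcc, which differs from the consensus only in its first base. A TTNNGNAA match also lay at -188 in CXCL2 and at -125 in the window of the first of the 2 RELA starts. Of 35116 promoters of the same length, 5.21% held the kappaB consensus and 33.2% held TTNNGNAA. A match describes the letters only.

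The deposited values are log2(CPM + 1), with CPM the read count of a gene scaled to a common library total. Depth cannot be read from them, and the number of libraries limits the precision. The sum over genes ranged from 684411 to 727083 CPM per library. Neither knockdown was checked on its target, as the CDH2 and GJA1 (Cx43) transcripts were not analysed here. All 8 listed markers of MDA-MB-231 had values, with a summed level of 3100 to 3320 CPM in scramble, 2640 to 2760 in CDH2 shRNA and 2850 to 2910 in Cx43 shRNA libraries. Of 7 luminal and epithelial markers ERBB2 and EPCAM had rows, summing to 41.6 to 46.8, 38.7 to 42.8 and 46.6 to 50.8 CPM in the same order, and ESR1, PGR and CDH1 had none. Of 12 markers of marrow fibroblasts and mesenchymal stem cells 5 had rows, summing to 321 to 361, 308 to 342 and 305 to 309 CPM. Of 6 hepatocyte markers only SERPINA1 had a row, and ALB had none. Of 10 leukocyte markers CD68, CSF1R and ITGAM had rows and PTPRC had none, and their summed level was 26.5 to 28.1 CPM in scramble, 25.9 to 28.2 in CDH2 shRNA and 18.4 to 20.8 in Cx43 shRNA libraries. The part of these differences in the results below was not tested. In bulk samples, fewer cells of a type and less RNA per cell cannot be told apart.

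SAA1 was the most abundant member per transcript length in scramble CSCs, and it was lower by a similar amount in both knockdowns. SAA1 (ENSG00000173432.13, GENCODE v44 on hg38, chr11:18266260-18269977, plus strand, 4 exons) stood at 5.90, 6.16 and 5.67 log2(CPM + 1) in the scramble libraries. It stood at 3.88, 4.02 and 4.31 with CDH2 shRNA and at 4.23 and 3.82 with Cx43 shRNA. All 5 knockdown libraries lay below all 3 scramble libraries, and the knockdown groups overlapped each other. Groups without overlap with scramble, in either direction, were common, at 51.9% of all genes for CDH2 shRNA and 52.8% for Cx43 shRNA. In CPM the group means were 59.7, 15.9 and 15.4. Its log2 fold change was -1.84 in the CDH2 knockdown (SE 0.20, 95% interval -2.33 to -1.36), a level 3.59-fold lower on the log2(CPM + 1) scale. It was -1.89 in the Cx43 knockdown (SE 0.23, 95% interval -2.46 to -1.32), a level 3.70-fold lower. Of the 12939 genes, SAA1 had the 2nd lowest log2 fold change in the CDH2 knockdown and the 4th lowest in the Cx43 knockdown. SAA1 and SAA2 were chosen for their fall, so their intervals and ranks, here and below, are a description and no test.

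SAA2, the neighboring and closely related gene (ENSG00000134339.9, chr11:18239223-18248668, minus strand, 4 exons), had values of 3.84, 4.08 and 3.60 in scramble libraries. It had values of 2.0, 1.86 and 2.29 with CDH2 shRNA and of 2.26 and 2.16 with Cx43 shRNA. Every knockdown library again lay below every scramble library, where 51.9% (CDH2 shRNA) and 52.8% (Cx43 shRNA) of all genes had no overlap. The log2 fold changes were -1.79 (SE 0.17, 95% interval -2.21 to -1.37) and -1.63 (SE 0.20, 95% interval -2.12 to -1.13), which put SAA2 4th and 11th from the lowest of all genes. With a pseudocount of 0.1 in place of 1, the change in the CDH2 knockdown was -2.05, since a pseudocount of 1 understates the change of a gene at this level.

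The SAA genes kept nearly the same proportion to each other in the scramble libraries. The ratio of SAA1 to SAA2 in CPM was 4.40 to 4.49 in scramble libraries, 4.54 to 5.76 with CDH2 shRNA, and 4.67 and 3.77 with Cx43 shRNA. Their split is uncertain, however, because reads of 75 bases cannot always be told apart: 26.4% of the 75-base windows of SAA1 and 39% of those of SAA2 also occur in transcripts of other genes. SAA4 and the readthrough gene SAA2-SAA4 were in the list of acute phase genes used below, and no values of theirs are given here.

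The differences of SAA1 and SAA2 between same-numbered knockdown and scramble libraries varied within each knockdown. For SAA1 the difference from the scramble library of the same number was -2.02, -2.14 and -1.37 in CDH2 shRNA libraries 1 to 3, and -1.67 and -2.34 in Cx43 shRNA libraries 1 and 2. For SAA2 it was -1.84, -2.21 and -1.31, and -1.58 and -1.92. Both genes differed least in CDH2 shRNA library 3 and most in library 2 of each knockdown. Both knockdowns were set against the same scramble libraries, of which library 2 was the highest (SAA1 6.16, SAA2 4.08) and library 3 the lowest (5.67 and 3.60). The values had also been corrected by replicate number, so this order is not that of the knockdown libraries alone. Between the knockdowns, SAA1 differed by 0.04 (CDH2 minus Cx43, 95% interval -0.53 to 0.61) and SAA2 by -0.16 (95% interval -0.65 to 0.33).

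**Figure D1:**
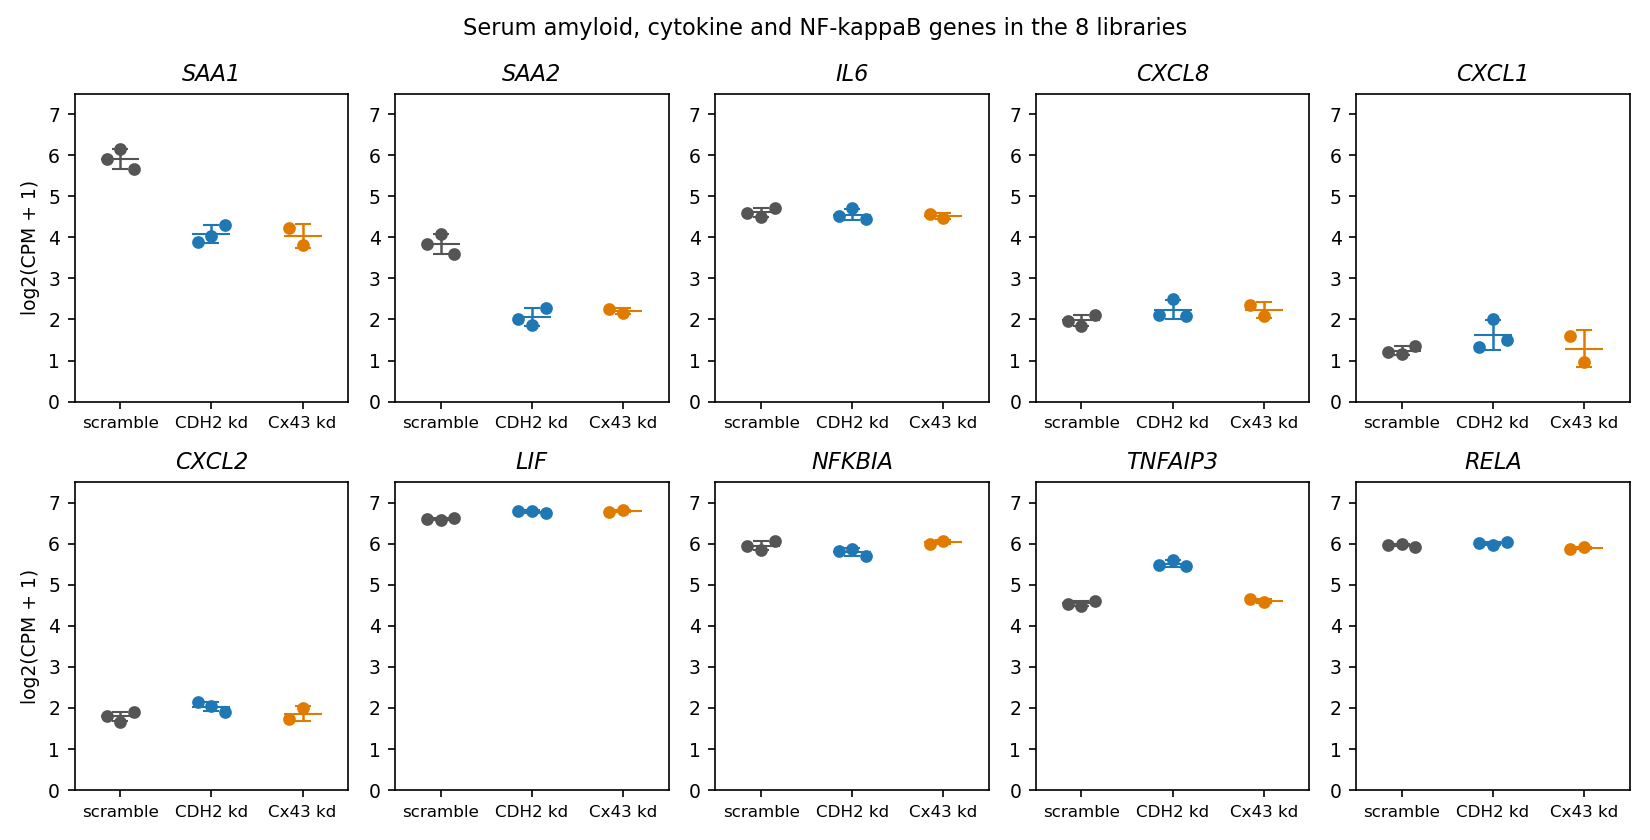
Level of each of the 10 members in log2(CPM + 1), with 1 point per library, for scramble shRNA (3 libraries), CDH2 shRNA (CDH2 kd, 3) and Cx43 shRNA (Cx43 kd, 2); the horizontal line is the group mean and the bar its SD. SAA1 and SAA2 sit lower in all 5 knockdown libraries, TNFAIP3 sits higher in the 3 CDH2 shRNA libraries alone, and the points of the remaining members lie at similar heights.

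The cytokines did not show the fall of SAA1 and SAA2, though 3 of them had little room to fall on this scale. Genes were called past threshold in limma where the p adjusted by Benjamini-Hochberg over all genes was under 0.05 and the fold was at least 1.66 in the CDH2 knockdown or 1.5 in the Cx43 knockdown. None of the 5 cytokines was past threshold in either knockdown. By these criteria 2.06% of all genes (267) were past threshold in the CDH2 knockdown and 1.18% (153) in the Cx43 knockdown, with 1.2% and 0.781% downward. By the adjusted p alone 14.3% and 1.21% of all genes passed, by the unadjusted p 37.5% and 21.6%, and no cytokine passed either.

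IL6, which encodes the main inducer of acute phase genes, had values of 4.60, 4.50 and 4.72 in scramble, 4.51, 4.71 and 4.44 in CDH2 shRNA, and 4.56 and 4.46 in Cx43 shRNA libraries. The 3 groups overlapped. IL6 had a log2 fold change of -0.05 in the CDH2 knockdown (SE 0.11, 95% interval -0.33 to 0.22, adjusted p = 0.753). It was -0.10 in the Cx43 knockdown (SE 0.13, 95% interval -0.43 to 0.22, adjusted p = 0.693).

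CXCL8, CXCL1 and CXCL2 encode chemokines that draw neutrophils, and all 3 were low in these cells. A gene with no reads stands at 0 on the log2(CPM + 1) scale, and their scramble means were 1.98, 1.24 and 1.79. CXCL1 and CXCL2 therefore could not show the change of SAA1 in the CDH2 knockdown, -1.84, and CXCL8 had little room for it. CXCL8 had values of 1.97, 1.85 and 2.12 in scramble, 2.11, 2.5 and 2.09 in CDH2 shRNA, and 2.36 and 2.09 in Cx43 shRNA libraries. Its groups overlapped, with log2 fold changes of 0.25 (SE 0.16, adjusted p = 0.284) and 0.25 (SE 0.19, adjusted p = 0.487). CXCL1 had values of 1.22, 1.15 and 1.36 in scramble, 1.32, 2.02 and 1.5 in CDH2 shRNA, and 1.61 and 0.97 in Cx43 shRNA libraries. The highest value was that of CDH2 shRNA library 2, and the spread among knockdown libraries was wider than among scramble libraries. Its log2 fold changes were 0.37 (95% interval -0.24 to 0.98, adjusted p = 0.312) and 0.05 (95% interval -0.66 to 0.76, adjusted p = 0.938). CXCL2 had values of 1.80, 1.67 and 1.91 in scramble, 2.14, 2.04 and 1.91 in CDH2 shRNA, and 1.74 and 1.99 in Cx43 shRNA libraries. In the CDH2 knockdown its log2 fold change was 0.24 (SE 0.12, adjusted p = 0.211), and in the Cx43 knockdown 0.07 (SE 0.14, adjusted p = 0.806). None of the 3 chemokine estimates was below 0 in either knockdown.

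LIF, an IL-6 family cytokine that signals through STAT3, varied little between the libraries of a group, with an SD of 0.03 in each. Its values were 6.60, 6.57 and 6.63 in scramble, 6.80, 6.79 and 6.75 in CDH2 shRNA, and 6.77 and 6.81 in Cx43 shRNA libraries. Every knockdown library lay above every scramble library. Groups without overlap were common, at 51.9% of all genes between scramble and CDH2 shRNA and 52.8% between scramble and Cx43 shRNA. With CDH2 shRNA the log2 fold change was 0.18 (SE 0.07, 95% interval -0.0028 to 0.36, adjusted p = 0.137). It was 0.19 in the Cx43 knockdown (SE 0.09, 95% interval -0.02 to 0.40, adjusted p = 0.273). Without the replicate number as a block the adjusted p was 0.0143 and 0.0275, and the fold stayed under the threshold in both. The deposited values had already been corrected by replicate number, so the p-values of that fit are too low.

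Of the NF-kappaB genes, TNFAIP3 rose in the CDH2 knockdown. TNFAIP3 (ENSG00000118503.18, chr6:137867214-137883314, plus strand, 9 exons) encodes a ubiquitin-editing enzyme that shuts off signaling from TNF and Toll-like receptors to IKK. Its values were 4.54, 4.48 and 4.61 in scramble, 5.48, 5.61 and 5.45 in CDH2 shRNA, and 4.65 and 4.58 in Cx43 shRNA libraries. The CDH2 shRNA libraries lay above the scramble libraries, where 51.9% of all genes had no overlap. The Cx43 shRNA libraries overlapped the scramble libraries. In CPM the group means were 22.4, 44.7 and 23.5. TNFAIP3 had a log2 fold change of 0.97 in the CDH2 knockdown (SE 0.09, 95% interval 0.75 to 1.19), a level 1.95-fold higher with an adjusted p of 0.016. TNFAIP3 was the 1 member of 8 past threshold, where 0.866% of all genes (112) were past threshold upward and 0.402% in the Cx43 knockdown, and its log2 fold change was the 42nd from the highest. With Cx43 shRNA its log2 fold change was 0.07 (SE 0.11, 95% interval -0.19 to 0.33, adjusted p = 0.732).

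The size of the TNFAIP3 change varied little between fits, and its call varied. Over 16 alternatives the log2 fold change ran from 0.88 to 1.03 and the adjusted p from 0.000175 to 0.0836. It was not past threshold without CDH2 shRNA library 1 (adjusted p = 0.0836), CDH2 shRNA library 2 (0.0751), scramble library 1 (0.0745), or either Cx43 shRNA library (0.0561), or with only the scramble and CDH2 shRNA libraries (0.0561). In these 6 fits 0 to 10 of all 12939 genes were past threshold. Without CDH2 shRNA library 3 or scramble library 3 its adjusted p was 0.000175. For this comparison these fits are the same as that on replicate numbers 1 and 2 alone. Those without a Cx43 shRNA library are the same as that with only the scramble and CDH2 shRNA libraries. The 16 alternatives are therefore not all separate. Against the scramble library of the same number, TNFAIP3 differed by 0.94, 1.13 and 0.83 in CDH2 shRNA libraries 1 to 3, and by 0.11 and 0.09 in the Cx43 shRNA libraries.

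The difference between the knockdowns was tested directly. TNFAIP3 was higher with CDH2 shRNA than with Cx43 shRNA by 0.90 on the log2 scale (SE 0.11, 95% interval 0.64 to 1.15, unadjusted p = 0.000165), with an adjusted p of 0.115. In this comparison 0% of all genes were past threshold, while 20% were under 0.05 before adjustment. A fit that left the replicate block out called 360 genes, TNFAIP3 among them with an adjusted p of 0.00173. Its p-values are too low, since the values had already been corrected by replicate number. The range of adjusted p over the alternatives was 0.00173 to 0.678. For the other 7 tested members the direct adjusted p ran from 0.304 (NFKBIA) to 0.987 (CXCL8).

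NFKBIA (ENSG00000100906.12, chr14:35401079-35404749, minus strand) encodes the inhibitor IkappaBalpha, an early target of NF-kappaB itself. Its values were 5.95, 5.85 and 6.06 in scramble, 5.83, 5.87 and 5.69 in CDH2 shRNA, and 6.0 and 6.07 in Cx43 shRNA libraries. Each knockdown overlapped scramble. The log2 fold change was -0.16 in the CDH2 knockdown (SE 0.10, 95% interval -0.40 to 0.08, adjusted p = 0.279) and 0.08 in the Cx43 knockdown (SE 0.11, 95% interval -0.20 to 0.37, adjusted p = 0.71). The direct difference was -0.24 (95% interval -0.53 to 0.04, adjusted p = 0.304). The interval of NFKBIA in the CDH2 knockdown lies wholly below that of TNFAIP3.

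RELA, the main activating subunit of NF-kappaB, had values of 5.97, 6.0 and 5.93 in scramble, 6.02, 5.96 and 6.04 in CDH2 shRNA, and 5.88 and 5.91 in Cx43 shRNA libraries. Both Cx43 shRNA libraries lay just below the lowest scramble library, where 52.8% of all genes had no overlap. The log2 fold change was 0.04 (SE 0.08, 95% interval -0.15 to 0.23, adjusted p = 0.726) in the CDH2 knockdown and -0.07 (SE 0.09, 95% interval -0.29 to 0.15, adjusted p = 0.674) in the Cx43 knockdown.

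**Figure D2:**
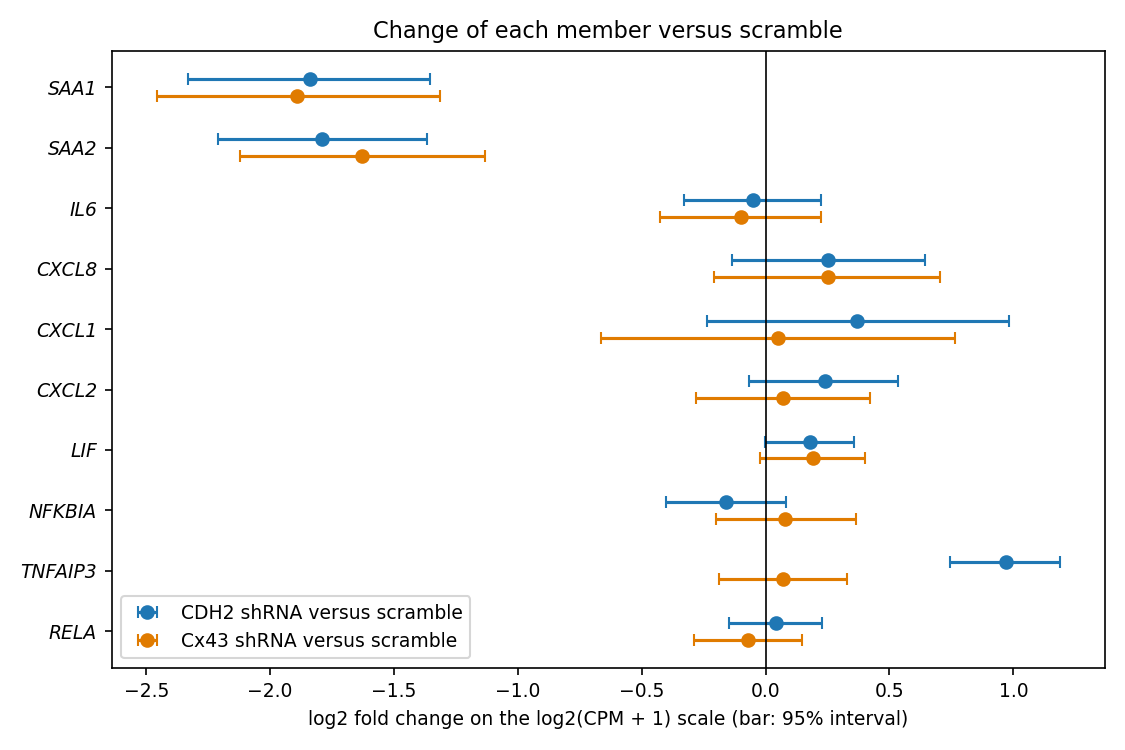
Log2 fold change of each member versus scramble on the log2(CPM + 1) scale (x axis), with its 95% interval from limma, for the CDH2 and the Cx43 knockdown. SAA1 and SAA2 were chosen for their fall, so their intervals, which lie below -1 in both knockdowns, are a description and no test. Of the 8 tested members, only TNFAIP3 in the CDH2 knockdown, at 0.97, has an interval that excludes 0.

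Compared per kb of transcript, the members spanned a wide range of levels. In scramble CSCs SAA1 stood highest at 115 CPM per kb (range 96.5 to 136), followed by NFKBIA at 39.2 (36.3 to 42.1). LIF at 24.8, RELA at 24.5, SAA2 at 23.4 and IL6 at 20.8 came next, and the ranges of neighbors in this order overlapped. TNFAIP3 stood at 4.80 (4.58 to 5.03), apart from its neighbors. CXCL2 at 2.22 and CXCL8 at 1.80 overlapped in range, and CXCL1 was lowest at 1.17 (1.04 to 1.33). In the CDH2 knockdown SAA1 stood at 30.7 (26.4 to 36.2) and NFKBIA at 35.0 (32.5 to 36.8), with ranges that overlapped in part, while SAA2 stood at 5.53 and TNFAIP3 stood above it at 9.58. In the Cx43 knockdown SAA1 stood at 29.8 and SAA2 at 6.32, above TNFAIP3 at 5.05.

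**Figure D3:**
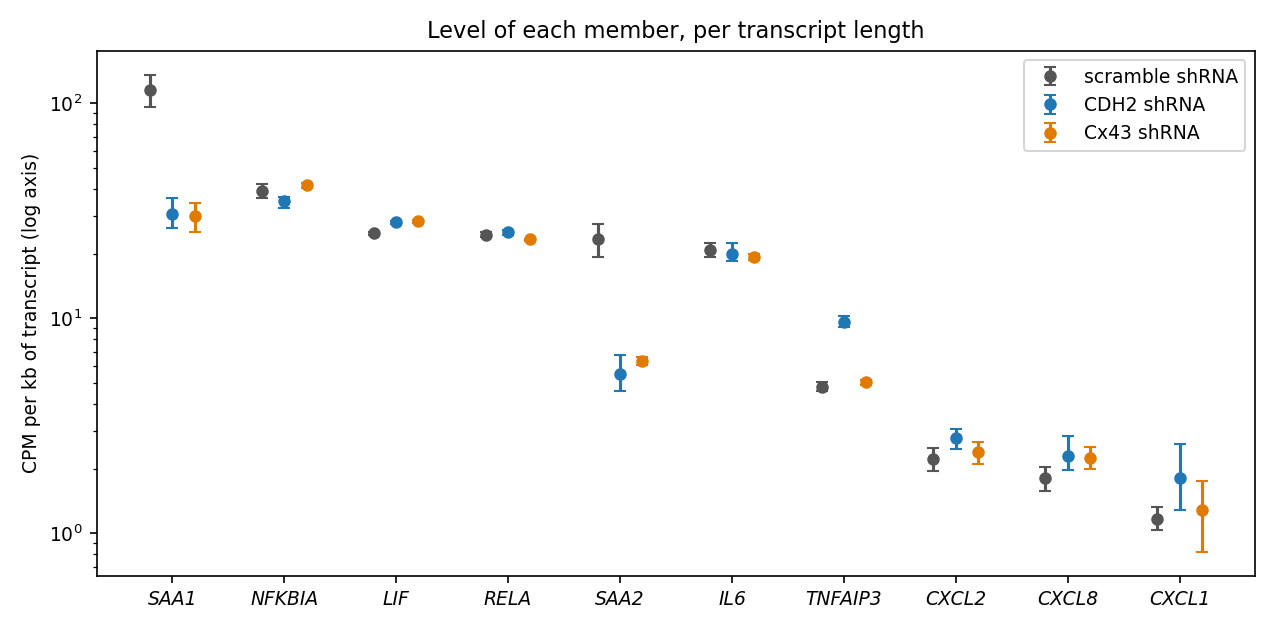
Level of each member in CPM per kb of its canonical transcript (log axis), ordered by the scramble mean; points are group means and bars the range over libraries. SAA1 drops from 115 in scramble to 30.7 and 29.8 in the knockdowns, and TNFAIP3 stands at 9.58 with CDH2 shRNA against 4.80 in scramble.

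The wider pathway was described with 8 lists of genes, which hold 117 genes with values. The lists were chosen with earlier results of these data known, so the shares below are a description. Without SAA1 and SAA2, 5 of 115 were past threshold in the CDH2 knockdown (4.35%, against 2.06% of all genes), 2 of them higher and 3 lower. In the Cx43 knockdown 2 of 115 were past threshold (1.74%, against 1.18%), both lower, and 10 were when the replicate block was left out. The medians of all genes were 0.01 and 0.04 on the log2 scale. No gene of the lists was past threshold between the knockdowns.

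In the acute phase list, 7 of 25 genes had values, with a median log2 fold change of -0.60 in the CDH2 and -0.88 in the Cx43 knockdown. Both SAA genes are included and were chosen for their fall, so these medians do not describe the rest of the list. Besides SAA1 and SAA2, SERPINA1 fell in both knockdowns. SERPINA1 encodes alpha-1 antitrypsin, a protease inhibitor of the acute phase, and its values were 3.39, 3.25 and 3.55 in scramble, 2.47, 2.69 and 2.35 in CDH2 shRNA, and 2.40 and 2.32 in Cx43 shRNA libraries. All knockdown libraries lay below the scramble libraries, where 51.9% (CDH2 shRNA) and 52.8% (Cx43 shRNA) of all genes had no overlap. The log2 fold changes of SERPINA1 were -0.89 (SE 0.13, adjusted p = 0.0215) and -1.04 (SE 0.15, adjusted p = 0.0473). These comparisons share the scramble libraries.

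Of 13 cytokines and chemokines with values, 1 was past threshold in the CDH2 knockdown and 0 in the Cx43 knockdown, with medians of -0.05 and -0.09. The 1 was CCL5, a chemokine for T cells and monocytes, at 3.89, 4.10 and 3.71 in scramble, 2.98, 3.06 and 3.30 in CDH2 shRNA, and 3.09 and 2.80 in Cx43 shRNA libraries. Its log2 fold change was -0.79 (SE 0.16, adjusted p = 0.0348) in the CDH2 knockdown. With Cx43 shRNA it was -0.96 (SE 0.18), which missed the threshold with an adjusted p of 0.0734.

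Among 16 receptors, IL6R, the ligand-binding chain of the IL-6 receptor, rose in the CDH2 knockdown. Its values were 2.70, 2.84 and 2.59 in scramble, 3.33, 3.46 and 3.58 in CDH2 shRNA, and 2.94 and 2.67 in Cx43 shRNA libraries. The log2 fold change was 0.75 (SE 0.13, adjusted p = 0.0266) with CDH2 shRNA and 0.09 (adjusted p = 0.757) with Cx43 shRNA, and the direct difference of 0.65 had an adjusted p of 0.139. IL6R and TNFAIP3 were the 2 genes of the lists that rose past threshold.

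Of 27 adaptors and IKK genes, 0 were past threshold in the CDH2 knockdown and 1 in the Cx43 knockdown. This was MAP3K14, which encodes NIK, the kinase that starts the noncanonical NF-kappaB pathway. Its values were 6.57, 6.64 and 6.52 in scramble, 6.25, 6.37 and 6.40 in CDH2 shRNA, and 5.80 and 5.61 in Cx43 shRNA libraries. It fell with Cx43 shRNA by 0.87 on the log2 scale (SE 0.11, adjusted p = 0.0375). With CDH2 shRNA its log2 fold change was -0.23 (adjusted p = 0.137), and the direct difference of 0.64 had an adjusted p of 0.124.

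None of the 5 NF-kappaB subunit genes was past threshold, with medians of 0.04 and -0.05. NFKB1, the precursor of the other chain of the canonical dimer, stood at 5.73, 5.75 and 5.72 in scramble and 6.04, 6.15 and 6.11 in CDH2 shRNA libraries, with a log2 fold change of 0.37 (SE 0.08, adjusted p = 0.041) that was under the fold required. REL, a subunit first known from lymphoid cells, stood at 4.26, 4.13 and 4.42 in scramble and 4.70, 4.95 and 4.60 in CDH2 shRNA libraries, with a log2 fold change of 0.48 (SE 0.13, adjusted p = 0.0625). With Cx43 shRNA, NFKB1 had a log2 fold change of 0.14 (adjusted p = 0.447) and REL of -0.04 (adjusted p = 0.915).

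Of 17 inhibitors and feedback genes, TNFAIP3 was the 1 past threshold in the CDH2 knockdown and none was in the Cx43 knockdown. In the CDH2 knockdown 13 of the 17 had a log2 fold change below 0, and the median was -0.16, so TNFAIP3 stood apart from most of its list in direction. In the Cx43 knockdown 8 of 17 were below 0 and the median was 0.02.

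None of the 10 genes of the IL-6 and STAT3 arm was past threshold, with medians of 0.14 and 0.10. CEBPB, a C/EBP factor of acute phase promoters, stood at 7.22, 7.17 and 7.28 in scramble, 6.79, 6.88 and 6.75 in CDH2 shRNA, and 6.92 and 6.89 in Cx43 shRNA libraries. Its log2 fold changes were -0.42 (SE 0.08, adjusted p = 0.0342, under the fold required) and -0.32 (adjusted p = 0.147). SOCS1, a feedback inhibitor of cytokine receptors, stood at 2.29, 2.47 and 2.15 in scramble, 1.54, 1.65 and 1.83 in CDH2 shRNA, and 1.63 and 1.35 in Cx43 shRNA libraries. Its log2 fold changes were -0.63 (SE 0.14, adjusted p = 0.0418, under the fold required) and -0.82 (SE 0.17, adjusted p = 0.0831).

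Of 22 other NF-kappaB targets, PSMB9, a subunit of the immunoproteasome, was the 1 past threshold in the CDH2 knockdown. Its values were 5.03, 5.16 and 4.92 in scramble, 4.04, 4.10 and 4.25 in CDH2 shRNA, and 4.46 and 4.26 in Cx43 shRNA libraries. The log2 fold change was -0.91 (SE 0.12, adjusted p = 0.02) with CDH2 shRNA, and -0.68 (SE 0.14, adjusted p = 0.0802) with Cx43 shRNA. The medians of this list were -0.15 and -0.00.

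The calls of these list genes also varied with the libraries used. With each of the 8 libraries left out in turn, SERPINA1 stayed past threshold in 3 fits in each knockdown, PSMB9 in 3, CCL5 in 2, IL6R in 1 and MAP3K14 in 3. Their log2 fold changes kept direction in all of them, and ran from -1.04 to -0.74 for SERPINA1 in the CDH2 knockdown and from 0.62 to 0.85 for IL6R. The calls in both knockdowns were lost without CDH2 shRNA library 1 or 2, scramble library 1, or either Cx43 shRNA library, with adjusted p up to 0.151 in the CDH2 knockdown (CCL5) and 0.383 in the Cx43 knockdown (SERPINA1). Few of all 12939 genes were past threshold without CDH2 shRNA library 1 or 2 or scramble library 1. In these fits they numbered 0 to 10 in the CDH2 knockdown and 0 to 5 in the Cx43 knockdown. CCL5 without scramble library 2, at -0.63, and IL6R without CDH2 shRNA library 3 or scramble library 3, at 0.62, kept an adjusted p under 0.05 and fell short of the fold. The fits without CDH2 shRNA library 3 and without scramble library 3 are the same, so the 8 are not all separate.

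**Figure D4:**
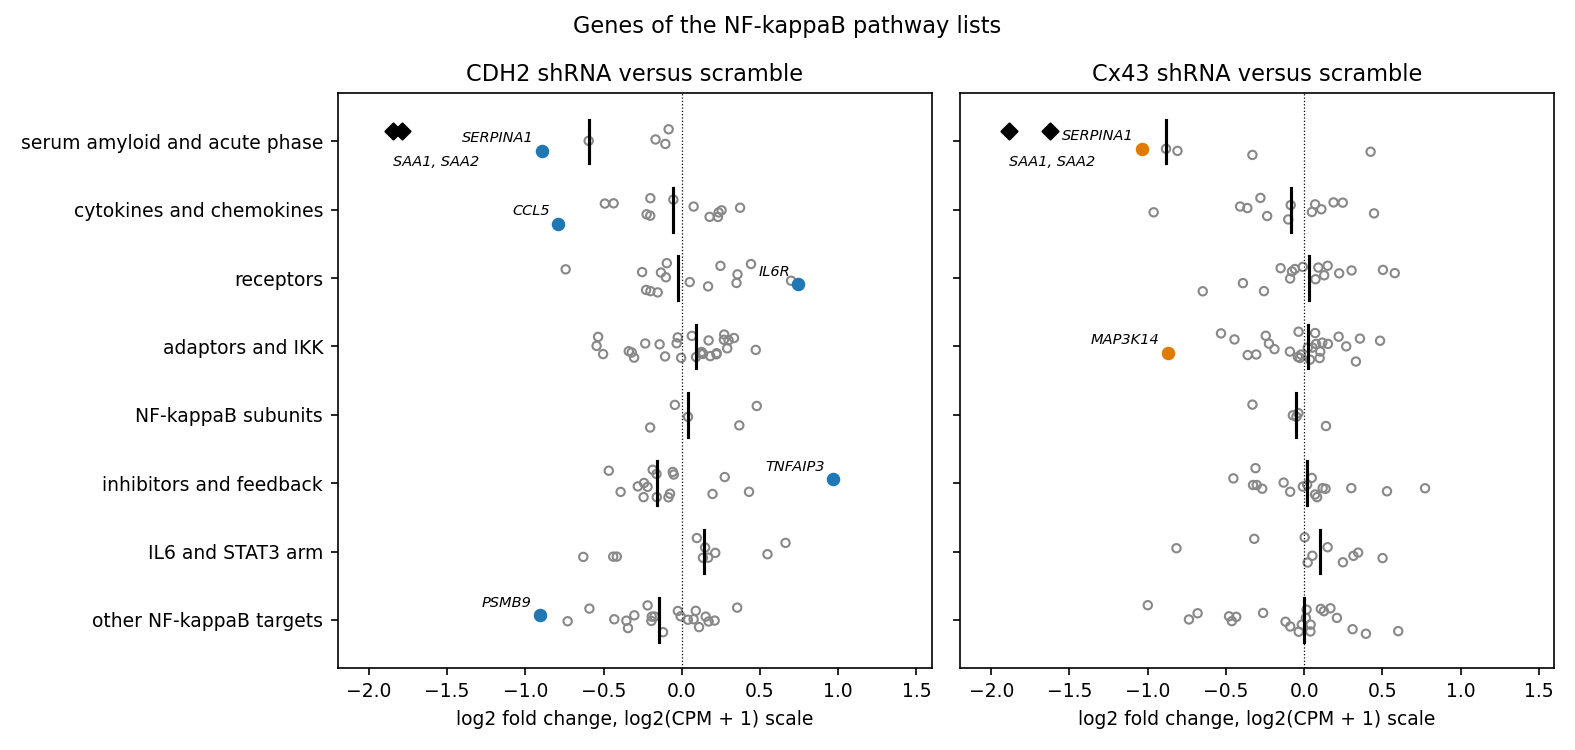
Log2 fold change versus scramble of every gene with values in the 8 pathway lists (x axis, log2(CPM + 1) scale), for the CDH2 knockdown (left) and the Cx43 knockdown (right). Filled circles are past threshold and named, open circles are not, and black diamonds are SAA1 and SAA2. Vertical lines are list medians, that of the acute phase list with SAA1 and SAA2 included. Apart from SAA1 and SAA2, 5 genes are filled on the left and 2 on the right.

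The genes whose values ran most like the mean of SAA1 and SAA2 over the 8 libraries were listed as a description. By Pearson's r these were TRIM21 (0.9997), MARCKSL1 (0.9974), CAPN5 (0.9973), RAET1G (0.9973), GASAL1 (0.9972) and MTX1 (0.9968). TRIM21, a ubiquitin ligase that binds antibodies in the cytosol, had values of 4.16, 4.19 and 4.13 in scramble, 3.92, 3.92 and 3.97 in CDH2 shRNA, and 3.96 and 3.93 in Cx43 shRNA libraries, a far smaller change than that of SAA1. The libraries share 3 groups and a correction for sequencing runs. Among the members LIF had r = -0.995, CXCL2 -0.685, CXCL8 -0.684, TNFAIP3 -0.662, CXCL1 -0.399, IL6 0.223, NFKBIA 0.152 and RELA 0.0915, against 0.989 between SAA1 and SAA2 themselves. The share of all genes with such values of r was not computed, and LIF was past threshold in neither knockdown.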

How the data were processed

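RNA-Seq values of 8 libraries were used. According to the methods and labels, the authors aligned single reads of 75 bases to hg38 with STAR (2.6.1 in the submitters' processing notes) and Partek's expectation-maximization step. They then left out a sample of poor quality, took the log of CPM + 1, corrected a batch effect among sequencing replicates and dropped low genes. Judged by their sums, the deposited values are in log2(CPM + 1). The annotation is not given in the sources used here. Whole-read steps were not found, since 496 or more of the 500 lowest values in each library are distinct. Of each library's rows, 1 without a gene name was left out.

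All genes were fitted with limma 3.58.1 in R 4.3.3 (lmFit, eBayes) on all 8 libraries, with group and replicate number as a block. Within each replicate number, deviations from group means sum to at most 1.0e-04 in every gene, so the correction had been made on these numbers, which the labels give. This pairs the libraries. Residual degrees of freedom were 3, plus 2.84 that limma drew from the other genes. P-values are two-sided and adjusted by Benjamini-Hochberg over 12939 genes. The fold required was 1.66 (CDH2) or 1.5 (Cx43 and direct), from the methods. Fold changes are on the log2(CPM + 1) scale. The fit was tested on simulated data.

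The members and lists were chosen with earlier results of these data known. Named genes are the members, list genes past threshold, the 2 list genes of lowest p where a list had none, and the 6 most like SAA1 and SAA2. GENCODE v44 gave positions and lengths, and RefSeq the promoters on GRCh38.p14. Alternatives tried were a fit with no replicate block, median centring, quantile normalization, only the 75% most abundant genes (the filter), a mean-variance trend, a pseudocount of 0.1, only the groups compared, an adjusted p under 0.05 alone or under 0.1, each library left out, and, added after seeing the data, replicate numbers 1 and 2 alone. Python 3.11.15, pandas 2.3.3 and matplotlib 3.10.9 were used for tables and figures.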

Additional observations from a re-analysis of the deposited data

How the results depend on the processing

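No value past threshold changed sign under any alternative, and the Cx43 knockdown had 0 of the 8 tested members past threshold in all of them. Members past threshold in the CDH2 knockdown went from 1 to 0 with only the groups compared. With each library left out in turn they numbered 0 or 1, depending on the library. Between the knockdowns they went from 0 to 1, TNFAIP3, without the replicate block, with only the groups compared and with replicate numbers 1 and 2 alone. There too they numbered 0 or 1 with each library left out, depending on the library. List genes past threshold in the CDH2 knockdown, 5 in the report, numbered 2 with the filter and 0 with only the groups compared. They numbered 9 with replicate numbers 1 and 2 and 17 by adjusted p alone. With each CDH2 shRNA or scramble library left out they numbered 0 to 9. Over all genes the counts were 150 of 9704 with the filter, 0 with only the groups compared and 723 with replicate numbers 1 and 2. By adjusted p alone the count over all genes was 1846 (14.3%), and with those libraries left out it was 0 to 723. In the Cx43 knockdown list genes past threshold, 2 in the report, numbered 10 without the replicate block and 0 with the filter. They numbered 15 with only the groups compared, 15 with replicate numbers 1 and 2, and 7 at an adjusted p under 0.1. With each CDH2 shRNA or scramble library left out they numbered 0 to 15. Over all genes the counts were 532 without the block, 4 of 9704 with the filter and 741 with only the groups compared. They were 730 with replicate numbers 1 and 2, 363 at an adjusted p under 0.1, and 0 to 730 with those libraries left out. With the filter the list genes SERPINA1, CCL5 and IL6R had no value. TNFAIP3 and PSMB9 stayed past threshold there in the CDH2 knockdown, and MAP3K14 missed it in the Cx43 knockdown with a limma adjusted p of 0.0536. The cause of the other shifts was not tested. Over all genes, 267, 153 and 0 were past threshold with the replicate block in the CDH2, Cx43 and direct comparisons, and 331, 532 and 360 without it. The fit without the block does not take off the degrees of freedom spent on the earlier correction by replicate number, so its p-values are too low. Among the members the filter removed SAA2, CXCL8, CXCL1 and CXCL2, which therefore have no value there. The SAA1 change ranged from -2.08 to -1.64 in the CDH2 and from -2.19 to -1.58 in the Cx43 knockdown, and that of SAA2 from -2.05 to -1.60 and from -1.83 to -1.39. Depth is unknown.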
